A study of Rattus norvegicus with 12 samples.

Results

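The miRNA content of extracellular vesicles (EVs) secreted by small hepatocytes (SHs) was compared with that of EVs secreted by mature hepatocytes (MHs). The 6 arrays were those whose sample titles name SH or MH, 3 SH-EV and 3 MH-EV arrays of 12 in the series. SHs are a proliferating subpopulation of hepatocytes that can differentiate into MHs, and the labels call them progenitor cells of the rat liver. MHs carry the label of parenchymal cells. By the methods, both came from livers of healthy adult F344 rats. SHs were grown on dishes coated with hyaluronic acid and MHs on dishes coated with type I collagen, so that cell kind and culture surface cannot be told apart. All cells then spent 2 days in DMEM without serum before EVs were separated from the medium. The other 6 arrays hold EVs of Thy1-positive mesenchymal cells and of bone marrow mesenchymal stem cells. They entered the normalization, the choice of the miRNAs tested and the shared estimate of the spread. Whether replicates were separate cultures or animals is not stated, and the p-values reflect the spread of these arrays alone, which may be technical.

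MiRNAs are short RNAs that guide a silencing complex to messenger RNAs, and pairing through the seed, bases 2 to 8 counted from the 5′ end, largely sets which messages are bound. Each is cut from a hairpin precursor whose arms are named 5p and 3p, and neighbouring hairpins are often transcribed together. Cells release a part of their miRNAs in EVs, and hepatocytes are known for a very high content of miR-122. A level in EVs is not a level in the cell.

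Mature sequences were taken from RefSeq (build GRCr8), which held 653 of the 727 miRNAs on the array and 345 of the 387 that were tested. Shown first are 3 liver miRNAs with large differences, with the seed in capitals. MiR-122-5p (Mir122, chr18:61028831-61028852, plus strand) lies within an annotated transcribed pseudogene. MiR-192-5p and miR-194-5p come from neighbouring hairpins at chr1:212994024-212994318 (plus strand) that no other annotated gene spans. Another miR-194 hairpin, Mir194-1, lies within the gene Iars2 (chr13:99382716-99382798, plus strand). The 3 miRNAs were lower in SH-EVs.
miR-122-5p: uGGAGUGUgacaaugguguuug
miR-192-5p: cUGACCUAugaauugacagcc
miR-194-5p: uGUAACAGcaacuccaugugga

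The next sequences are shown because members of 1 family differed in how far they changed between the groups. Differences between such members were not tested. The values of both miR-101 miRNAs were lower in SH-EVs, and only that of miR-101b-3p passed the threshold given below. Let-7a-5p and let-7e-5p share the seed and differ by 1 base, U9G (positions counted from 1 at the 5′ end, the base of the first-named miRNA first). MiR-99b-5p and miR-100-5p share their seed and differ by C1A, A11U, C16A and C21U. MiR-101a-3p and miR-101b-3p differ by A16G.
let-7a-5p: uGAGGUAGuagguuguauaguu
let-7e-5p: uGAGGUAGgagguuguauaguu
miR-99b-5p: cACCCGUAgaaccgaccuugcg
miR-100-5p: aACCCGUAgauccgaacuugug
miR-101a-3p: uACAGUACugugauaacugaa
miR-101b-3p: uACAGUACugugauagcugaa

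Pairs that moved together are shown for contrast. MiR-23a-3p and miR-23b-3p differ by U19A, miR-103-3p and miR-107-3p by G22C, and miR-130a-3p and miR-130b-3p by U11A and A13G. Probes for sequences this alike can bind each other's miRNA, so the members of such a pair may not be separate measurements. This was not tested, and it applies also to alike miRNAs counted in the lists below, such as miR-101a-3p and miR-101b-3p.
miR-23a-3p: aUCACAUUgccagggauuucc
miR-23b-3p: aUCACAUUgccagggauuacc
miR-103-3p: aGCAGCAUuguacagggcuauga
miR-107-3p: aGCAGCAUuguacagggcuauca
miR-130a-3p: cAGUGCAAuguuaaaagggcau
miR-130b-3p: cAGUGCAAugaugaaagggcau

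The last set holds guide strands of the miR-30 family, which share 1 seed, and the 3p arm of a miR-30c hairpin, which has another.
miR-30a-5p: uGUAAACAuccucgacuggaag
miR-30c-5p: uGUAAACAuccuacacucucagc
miR-30e-5p: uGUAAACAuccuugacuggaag
miR-30c-1-3p: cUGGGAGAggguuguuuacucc

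The brightness of each probe, its intensity, was corrected for background, quantile-normalized and taken to the log2 scale, and these normalized log2 intensities are the levels given here. Of 387 miRNAs tested with limma, 58 were higher in SH-EVs and 68 were higher in MH-EVs (adjusted p under 0.05, Benjamini-Hochberg over all 387), which is 32.6% of those tested, 15% higher and 17.6% lower in SH-EVs. Without adjustment 158 had a p under 0.05. More than 2-fold differences were called for 34 higher and 39 lower miRNAs, and more than 5-fold for 9 and 8. The arrays of the 2 groups did not overlap for 187 miRNAs, 48.3% of those tested, and for 120 of the 126 called. The median log2 fold change of all tested was -0.06 and the median standard error 0.187. With 3 arrays per group the number of arrays limits the precision.

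**Figure D1:**
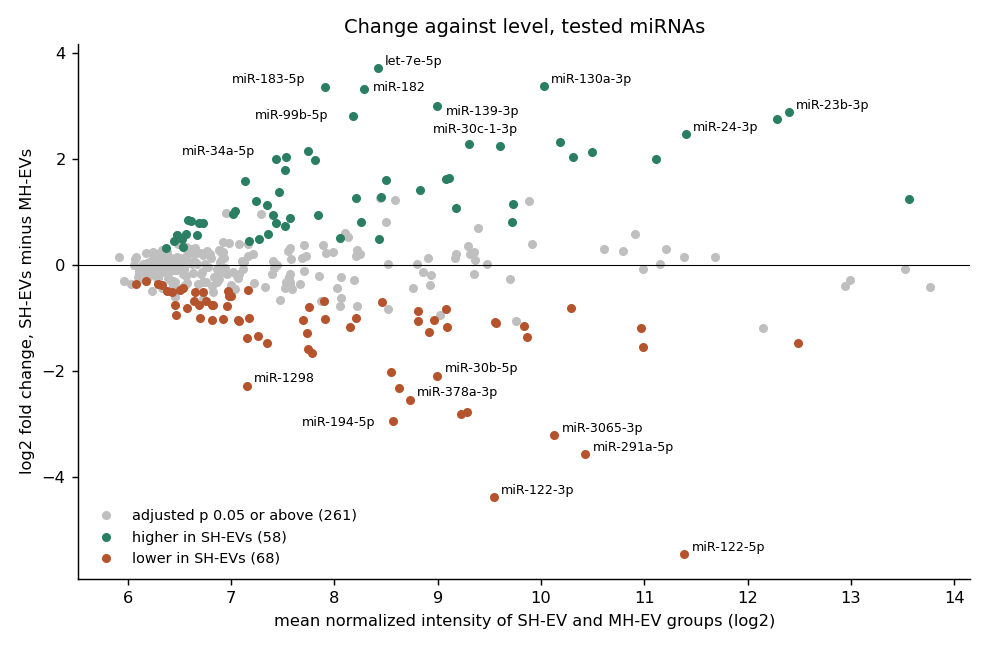
Log2 fold change (SH-EVs minus MH-EVs) of the 387 tested miRNAs against the mean normalized log2 intensity of the 2 groups, with 58 miRNAs called higher in green, 68 called lower in brown and the others in grey. MiR-122-5p lies lowest at -5.47 and let-7e-5p highest at 3.71.

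The control spots of the MH-EV arrays differed from those of the SH-EV arrays. The first spike-in control had an intensity of 5139 to 7915 on MH-EV arrays and of 28678 to 31389 on SH-EV arrays, and the mean of the blank spots was 59.8 to 77.9 and 101 to 123. On the arrays of the mesenchymal cells the spike-in control was at 28741 to 32905 and the blank spots at 96.8 to 136. Detected miRNAs numbered 425 to 528 and 271 to 330. An exact two-sided permutation test of each of these 3 measures gave p = 0.1, the smallest that 3 against 3 arrays can give. Replicates correlated at 0.953 to 0.992 among SH-EV arrays and at 0.929 to 0.990 among MH-EV arrays, with SH-EV replicate 1 and MH-EV replicate 3 the least alike within their groups, against 0.759 to 0.807 between the groups.

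The zero point of the comparison varied with the scaling of the arrays. The median log2 fold change of all tested, -0.06 after quantile normalization, was 0.49 with scaling to the median of the common probes (the 150 detected on all 12 arrays), 0.91 with their 75th percentile, -1.42 with the authors' normalized intensities and -2.23 with the spike-in spots. Where the authors' intensities held no value for an miRNA on an array, the lowest value of that array stood in for it. Fold changes and calls with the authors' intensities rest in part on these stand-ins. Of the 58 miRNAs called higher, 6 kept their direction in all 6 scalings (let-7e-5p, miR-183-5p, miR-182, miR-139-3p, miR-99b-5p and miR-130a-3p) and none kept the call in all, since with the spike-in spots no miRNA was called higher by limma. Of the 68 called lower, 47 kept their direction and 19 kept the call in all 6. Measured against each scaling's own median, 57 of the 58 and 67 of the 68 kept their direction, with miR-31a-5p and miR-142-5p the exceptions. Scalings to the median, the 75th percentile and the spike-in spots differ from each other only by a constant, so this last count rests on 4 different sets of values. The fold changes that follow compare an miRNA with the others on its array and say nothing of how much RNA or how many EVs there were. MiR-31a-5p was called higher at 0.80 but lay at -1.27 with the authors' intensities and at -2.36 with the spike-in spots, and its call was lost with plain background subtraction (0.90), without SH-EV replicates 1 (0.78), 2 (0.85) or 3 (0.78) and without MH-EV replicates 1 (0.70) or 2 (0.75). For miRNAs near the background in 1 group the size of the difference moved with the background correction. MiR-99b-5p ranged from 2.48 without correction to 4.22 with plain subtraction, let-7e-5p from 3.29 to 5.64, miR-130b-3p from 1.72 to 3.81, miR-194-5p from -2.65 to -3.96 and miR-1298 from -1.86 to -7.65, each in the same direction under all 4 background settings.

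**Figure D2:**
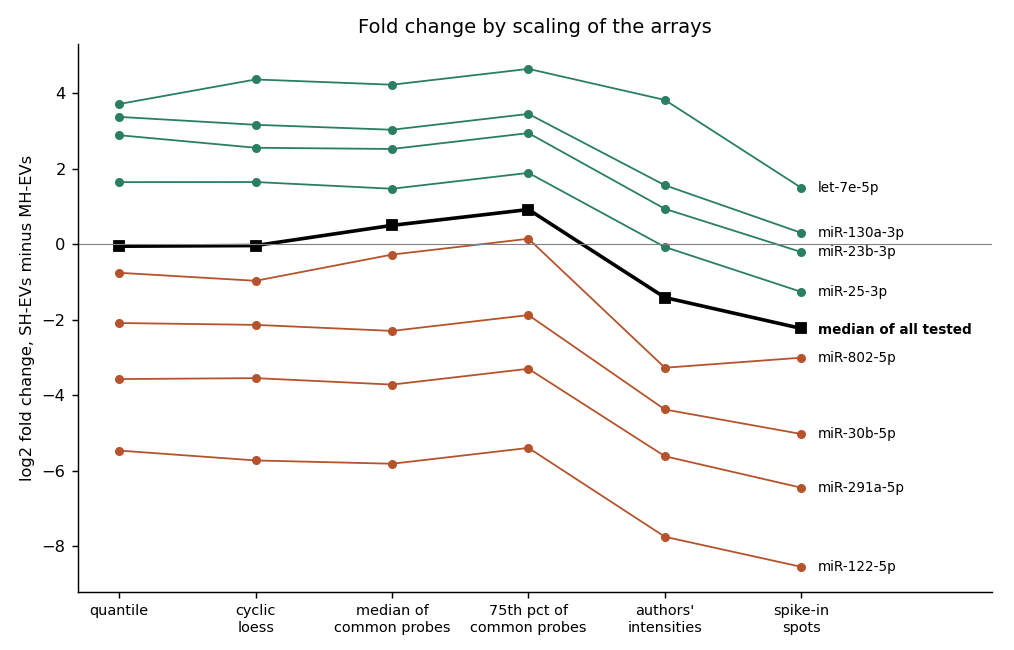
Log2 fold change (SH-EVs minus MH-EVs) of 8 miRNAs under 6 scalings of the arrays, 4 called higher in green and 4 called lower in brown, with the median of all 387 tested in black. The median ran from 0.91 to -2.23, let-7e-5p and miR-130a-3p stayed above zero throughout, miR-25-3p turned below zero with the authors' intensities and the spike-in spots, and miR-802-5p turned above zero with the 75th percentile.

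MiR-122, the predominant miRNA of hepatocytes, showed the largest difference. MiR-122-5p had levels of 7.99, 8.92 and 9.05 on the SH-EV arrays and of 14.29, 14.29 and 13.77 on the MH-EV arrays. Every SH-EV array was thus far below every MH-EV array. The log2 fold change was -5.47 (standard error 0.40, 3 arrays in each group, limma adjusted p = 3.11e-06), a 44.2-fold difference. As a share of all background-subtracted miRNA signal on its array, which needs no scaling between arrays, miR-122-5p took 0.128%, 0.218% and 0.259% in SH-EVs and 11.2%, 16.9% and 6.34% in MH-EVs, 56.9-fold more by the means (exact permutation p = 0.1, the smallest possible). Shares depend on how brightly a probe reports and on all other probes, so each is compared only with itself. The 3p arm of the same hairpin, miR-122-3p, fell as well (6.75, 7.53 and 7.76 against 11.33, 11.33 and 12.56, log2 fold change -4.39, standard error 0.62).

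MiR-192 and miR-194, enriched in liver and gut, were lower in SH-EVs on both arms of their shared cluster, 4 of 4 miRNAs (17.6% of all tested were lower). MiR-194-5p had levels of 6.87, 7.11 and 7.29 in SH-EVs and of 9.88, 10.20 and 10.02 in MH-EVs, a log2 fold change of -2.95 (standard error 0.23, limma adjusted p = 4.87e-06). MiR-192-5p had 7.81, 7.86 and 8.02 against 10.76, 11.04 and 10.20 (-2.77, standard error 0.37). The groups were apart by more than their own range for both. The 3p arms differed less, with miR-194-3p at -0.58 and miR-192-3p at -0.52, the latter detected on 1 of 3 SH-EV arrays. With 75th-percentile scaling these arms turned to 0.19 and 0.42, and miR-192-3p was at 0.00 with scaling to the median. MiR-192-5p lost its call with plain background subtraction (-3.26, adjusted p = 0.154 from limma), and miR-194-3p lost it without SH-EV replicate 3 (-0.51).

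MiR-378a-3p, whose hairpin lies in the gene of a metabolic coactivator in mammals, had levels of 7.16, 7.64 and 7.57 in SH-EVs and of 9.69, 9.73 and 10.60 in MH-EVs (log2 fold change -2.55, standard error 0.41, adjusted p = 0.000839 from limma). Its relative miR-378b lay at -2.32. MiR-101b-3p, within the gene Rcl1, had 7.12, 6.56 and 7.15 against 8.68, 9.11 and 8.05 (-1.67, standard error 0.27), a call lost with plain background subtraction (-2.70, adjusted p = 0.0995). For miR-101a-3p, 1 base away, the value was -0.43 (adjusted p = 0.0558 from limma) and no SH-EV array detected it. With plain subtraction miR-101a-3p lay at -1.97, also without a call. MiR-365-3p was lower at -1.29 and miR-193-3p at -1.37. The call of miR-193-3p was lost without SH-EV replicates 1 (-0.94) or 3 (-1.55) and without MH-EV replicate 3 (-0.82), and that of miR-365-3p with 75th-percentile scaling (-0.97). MiR-802-5p, a liver miRNA linked to glucose metabolism in mice, was detected on no SH-EV array and was at least 1.40-fold lower, but lay at 0.14 with the 75th percentile. Where an miRNA was missing in a group, the lowest level detected on each of those arrays stood in for it, which gives a lower bound.

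Among 17 tested miRNAs of hepatocytes, 13 were lower in SH-EVs and none higher (17.6% of all tested were lower), with a median log2 fold change of -1.29 against -0.06 over all tested. The 4 without a call were miR-101a-3p, miR-378a-5p, miR-365-5p and miR-33-5p. Every MH-EV array detected the whole list, and 12 of the 17 were found on each SH-EV array. The median stayed below zero in all 6 scalings, from -0.97 to -4.12, and 7 to 17 members were called lower in them. The 17 probes took 2.01% to 2.37% of the signal in SH-EVs and 15.1% to 22.3% in MH-EVs. MiR-122-5p alone took 0.128% to 0.259% of the signal in SH-EVs and 6.34% to 16.9% in MH-EVs. Its share was 0.167% to 0.631% in EVs of Thy1-positive mesenchymal cells and 0.111% to 0.274% in those of mesenchymal stem cells, so that the SH-EV shares overlapped those of both mesenchymal groups. In EVs a smaller number of hepatocytes and less of an miRNA per hepatocyte cannot be told apart.

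**Figure D3:**
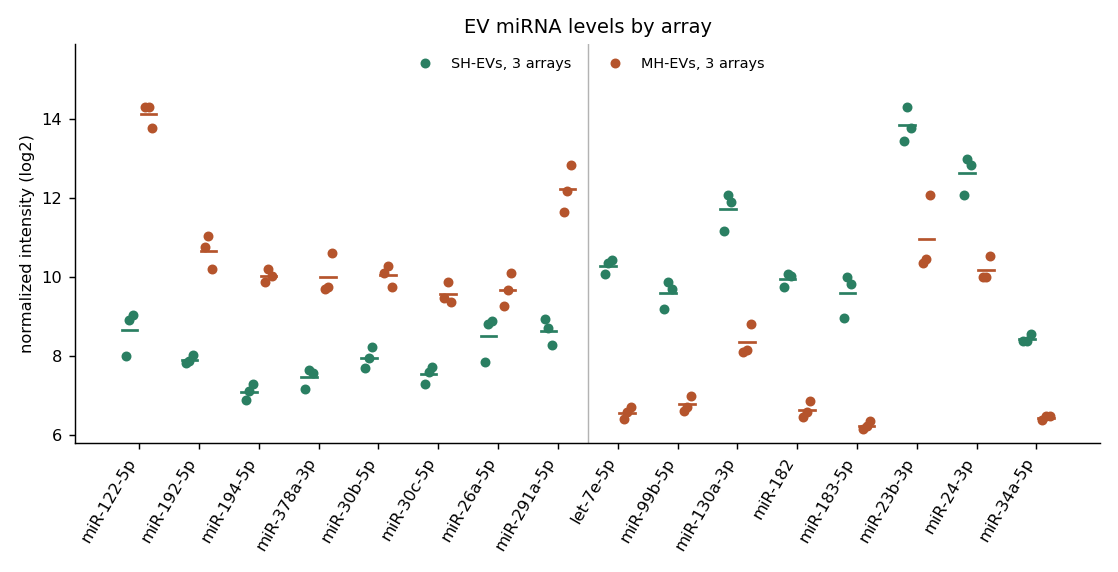
Normalized log2 intensity of 16 miRNAs on the 3 SH-EV arrays (green points) and the 3 MH-EV arrays (brown points), with bars at the group means, 8 lower in SH-EVs to the left of the line and 8 higher to the right. No group overlaps the other for any of the 16, the gap is widest for miR-122-5p (8.65 against 14.12 on average), and of the 8 to the right miR-23b-3p, miR-24-3p and miR-34a-5p turned below zero with the spike-in spots.

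Guide strands of the miR-30 family, abundant miRNAs of epithelia, were lower in SH-EVs. MiR-30b-5p had levels of 7.69, 7.94 and 8.23 in SH-EVs and of 10.11, 10.28 and 9.73 in MH-EVs (log2 fold change -2.09, standard error 0.18, adjusted p = 8.14e-06 from limma). MiR-30c-5p had 7.29, 7.59 and 7.73 against 9.46, 9.88 and 9.35 (-2.03, standard error 0.17). Neither overlapped, and both kept their call in all 6 scalings. The other guides lay at -1.35 (miR-30e-5p), -1.07 (miR-30a-5p) and -0.81 (miR-30d-5p), and all 3 lost their call with 75th-percentile scaling (-0.82, -0.86 and -0.61). MiR-30d-5p lost it also with plain background subtraction (-0.88) and without SH-EV replicate 1 (-0.61), MH-EV replicate 2 (-0.84) or MH-EV replicate 3 (-0.58). The 5 guides together took 0.635% to 0.887% of the signal in SH-EVs and 1.84% to 2.44% in MH-EVs. Of the 9 tested probes of the family, 3p arms included, 6 were lower and 2 higher (median -0.81), against 17.6% lower and 15% higher over all tested.

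The higher 2 were 3p arms of miR-30c hairpins. MiR-30c-1-3p, from the same hairpin as miR-30c-5p in the gene Nfyc (chr5:139634455-139634543, minus strand), had levels of 10.34, 10.53 and 10.46 in SH-EVs and of 8.04, 8.15 and 8.28 in MH-EVs (log2 fold change 2.29, standard error 0.26, adjusted p = 9.70e-05 from limma). Its SH-EV arrays were all above its MH-EV arrays, the reverse of the 5p arm. With the spike-in spots it lay at -0.36, and 1.88 above the median of all tested. MiR-30c-2-3p was higher at 0.33, a call lost with plain subtraction (1.36) and when any of the 6 arrays was left out (0.27 to 0.37). It turned to -0.27 with the authors' intensities and -1.73 with the spike-in spots. These were the only opposite calls among the 86 hairpins with both arms tested (the 5p arm is counted once for each hairpin). In 3 hairpins both arms were higher, in 6 both were lower, in 40 only 1 arm was called and in 35 neither.

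**Figure D4:**
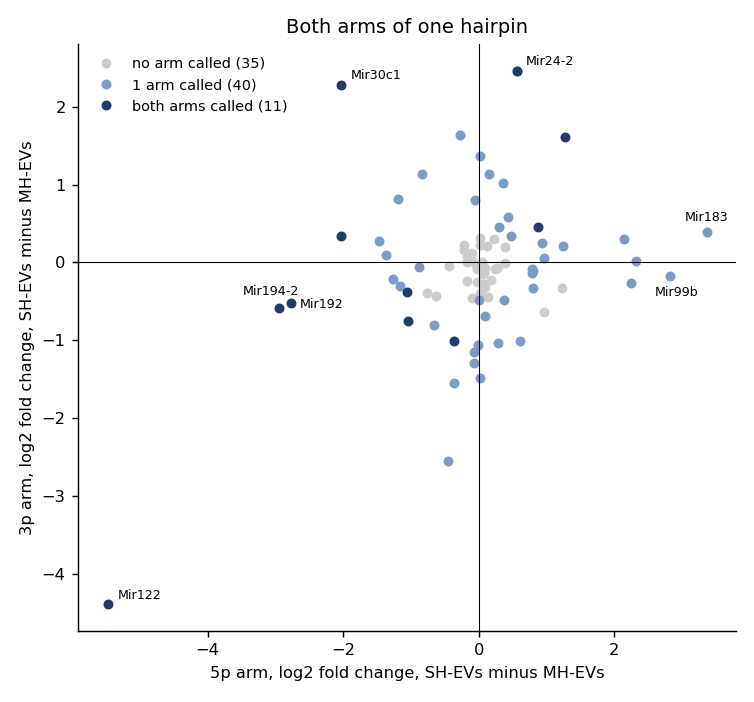
Log2 fold change (SH-EVs minus MH-EVs) of the 3p arm against that of the 5p arm for 86 hairpins, coloured by how many arms were called (35 none, 40 one arm, 11 both arms). Mir122 lies far below zero on both axes, and Mir30c1 lies at -2.03 for its 5p arm and 2.29 for its 3p arm (-0.36 with the spike-in spots).

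MiR-26a-5p and miR-26b-5p, which share a seed and lie in genes of small phosphatases, were both lower in SH-EVs. MiR-26a-5p had levels of 7.85, 8.80 and 8.88 against 9.25, 9.66 and 10.11 (log2 fold change -1.17, standard error 0.27, adjusted p = 0.00763 from limma). MiR-26b-5p, detected on 2 of 3 SH-EV arrays, lay at -1.37 and lost its call with 75th-percentile scaling (-0.71). Of the 5 tested members with the seed of miR-15 and miR-16, miRNAs that restrain the cell cycle, 3 were lower and none was higher (median -0.52), where 17.6% of all tested were lower. None of the 3 was called with median or 75th-percentile scaling, in which miR-15b-5p (-1.01) lay at -0.62 and -0.20, miR-16-5p (-0.68) at -0.74 and -0.32, and miR-195-5p (-0.48) above zero at 0.06 and 0.48. The call of miR-16-5p was lost when any 1 array other than MH-EV replicate 3 was left out (-0.45 to -0.76), and that of miR-195-5p without SH-EV replicates 1 (-0.42) or 3 (-0.49) or MH-EV replicates 2 (-0.45) or 3 (-0.42). Plain subtraction also lost the call of miR-16-5p (-0.98).

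Some members of the miR-290 cluster (chr1:74877973-74880135, minus strand), known from rodent embryonic stem cells, were brighter in MH-EVs. MiR-291a-5p had levels of 8.94, 8.72 and 8.26 in SH-EVs and of 11.64, 12.17 and 12.84 in MH-EVs (log2 fold change -3.57, standard error 0.38, adjusted p = 4.56e-05 from limma). MiR-294 had 7.83, 8.12 and 7.48 against 10.20, 10.16 and 11.53 (-2.82, standard error 0.35). Neither overlapped, and both calls held in all 6 scalings. MiR-290 lay at -1.17 and lost its call with 75th-percentile scaling (-0.83). Of 6 tested members 3 were lower and none was higher, where 17.6% of all tested were lower. The other 3 (miR-292-5p, miR-292-3p and miR-295-5p) were not called and lay between -0.44 and -0.05. The probes of the cluster took 0.30% to 0.515% of the signal in SH-EVs and 2.60% to 5.17% in MH-EVs.

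Other miRNAs with large differences were less well known. MiR-3065-3p had levels of 8.28, 8.61 and 8.66 in SH-EVs and of 12.40, 12.40 and 10.42 in MH-EVs (log2 fold change -3.22, standard error 0.43). The third MH-EV array was lower than the other 2, and without it the value was -3.88. MiR-764-3p lay at -1.59, miR-760-3p at -1.55 and miR-326-5p at -1.47, with calls held in all 6 scalings, and miR-134-3p of the imprinted Dlk1-Dio3 region at -1.48, a call lost with 75th-percentile scaling. Of the 379 miRNAs above the detection limit throughout the MH-EV group, 57 passed it nowhere in the SH-EV group. None of the 246 above it throughout the SH-EV group showed the reverse. Passing this limit does not by itself show that an miRNA was there. Of the spots without a probe, 52.9% to 76.7% passed it in the MH-EV group and 46.1% to 73.9% in the SH-EV group. Among the 57 miRNAs, miR-1298 (6.04, 6.03 and 5.95 against 9.07, 8.38 and 7.43) was at least 3.83-fold lower and miR-126a-3p at least 1.79-fold. The call of miR-126a-3p was lost with median scaling (-0.69) and 75th-percentile scaling (-0.27). The lower blank spots of the MH-EV arrays set a lower detection limit there, and the part of this in the count of 57 was not tested. Above the 95th percentile of the spots without a probe, a limit taken from each array, the counts were 55 and 2 (miR-183-5p and miR-205). This limit was also lower on MH-EV arrays (70.9 to 101) than on SH-EV arrays (141 to 163), so these counts cannot show the part of unequal limits.

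Among miRNAs higher in SH-EVs, let-7e-5p had the largest difference. Its levels were 10.06, 10.34 and 10.42 in SH-EVs and 6.41, 6.59 and 6.70 in MH-EVs (log2 fold change 3.71, standard error 0.24, adjusted p = 2.57e-06 from limma), a 13.1-fold difference. The arrays did not come near each other. It was the single call among 7 tested let-7 miRNAs, which all share 1 seed, since the other 6 lay between -0.25 and 0.23. Over all tested, 15% were higher. Let-7a-5p, which the sequences above show to differ by U9G, had 9.21, 9.35 and 9.66 in SH-EVs and 8.85, 9.62 and 9.48 in MH-EVs, with overlapping arrays (0.09, standard error 0.21), and lay at -2.08 with the authors' intensities and -3.08 with the spike-in spots.

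Let-7e lies in 1 cluster with miR-99b and miR-125a within the span of the gene Spaca6 (chr1:67350064-67350759, plus strand), and the 5p arms of all 3 were higher in SH-EVs (15% of all tested were higher). MiR-99b-5p had levels of 9.18, 9.88 and 9.69 in SH-EVs and of 6.61, 6.71 and 6.99 in MH-EVs (2.82, standard error 0.26, adjusted p = 1.29e-05 from limma). MiR-125a-5p had 8.42, 8.23 and 8.28 against 7.09, 7.11 and 7.92 (0.93, standard error 0.21). Neither overlapped, although miR-125a-5p turned to -0.25 with the authors' intensities and -1.52 with the spike-in spots. Together the 3 arms took 0.914% to 1.26% of the signal in SH-EVs and 0.0554% to 0.115% in MH-EVs. The 3p arms of miR-99b and miR-125a were not called (-0.18 and 0.25). Among paralogues outside the cluster, miR-125b-1-3p was called higher at 1.15 (10.11 to 10.46 against 8.64 to 9.82, without overlap), but lay at -0.67 with the authors' intensities and -1.79 with the spike-in spots. Its call was lost with median scaling (0.94), plain subtraction (1.30), cyclic loess (1.04) and when any 1 array other than MH-EV replicate 2 was left out (0.89 to 1.24). MiR-100-5p, which shares its seed with miR-99b-5p, lay at -0.95 (adjusted p = 0.229 from limma). MiR-125b-5p was lower at -0.88, a call lost without any of SH-EV replicates 1 (-0.89), 2 (-0.86) and 3 (-0.89) or MH-EV replicates 1 (-0.76) and 2 (-0.91). The call was lost also with plain background subtraction (-1.06), without background correction (-0.81) and with 75th-percentile scaling (-0.72).

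The cluster of miR-183, miR-96 and miR-182 (chr4:59752246-59756153, minus strand), known from sensory epithelia and from epithelial tumours, was higher in SH-EVs with 3 of 4 tested members (15% of all tested were higher). MiR-183-5p had levels of 8.97, 9.99 and 9.82 in SH-EVs and of 6.14, 6.22 and 6.34 in MH-EVs (3.36, standard error 0.31, adjusted p = 1.33e-05 from limma). MiR-182 had 9.73, 10.06 and 10.02 against 6.46, 6.57 and 6.85 (3.31, standard error 0.20). Both were near the background in MH-EVs, and the size of the difference followed the background correction, from 2.90 without it to 6.93 with plain subtraction for miR-183-5p and from 2.92 to 5.08 for miR-182. MiR-96-5p was higher at 1.58, which was 4.03 with plain subtraction and turned to -0.43 with the spike-in spots, and miR-183-3p was not called (0.39). The cluster took 0.75% to 1.20% of the signal in SH-EVs and 0.0425% to 0.0549% in MH-EVs.

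MiR-23a-3p, miR-23b-3p and miR-24-3p, from clusters shared with miR-27 that are expressed widely and have roles in vessels and muscle, were higher in SH-EVs except with the spike-in spots. MiR-23b-3p had levels of 13.45, 14.29 and 13.77 in SH-EVs and of 10.34, 10.46 and 12.07 in MH-EVs (2.88, standard error 0.46, adjusted p = 0.000788 from limma). MiR-23a-3p had 13.23, 13.77 and 13.98 against 10.42, 10.42 and 11.89 (2.75, standard error 0.43), and miR-24-3p 12.07, 12.99 and 12.84 against 9.99, 9.99 and 10.53 (2.46, standard error 0.34). The third MH-EV array was above the other 2 in each, but below all SH-EV arrays. The 3 turned to -0.28 (miR-23a-3p), -0.21 (miR-23b-3p) and -0.49 (miR-24-3p) with the spike-in spots and lost their call with the authors' intensities, while miR-23b-3p remained 2.02 or more above the median of all tested in every scaling. The cluster at chr19:40859455-40859843 (minus strand) had 4 of 4 tested members higher, where 15% of all tested were higher. They included miR-27a-3p at 1.07, which lay at -0.88 with the authors' intensities and at -1.98 with the spike-in spots. MiR-27a-3p lost its call with the median of the common probes (0.75). Its paralogue miR-27b-3p, of the cluster in the gene Aopep on chr17, lay at 0.70 (adjusted p = 0.0516 from limma), at -1.42 with the authors' intensities and at -2.47 with the spike-in spots. MiR-24-3p has a copy in each cluster. The probes of both clusters took 12.2% to 23.6% of the signal in SH-EVs and 2.21% to 6.13% in MH-EVs.

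MiR-130a-3p, studied for its role in vessels and fat, had levels of 11.17, 12.07 and 11.89 in SH-EVs and of 8.10, 8.14 and 8.80 in MH-EVs (3.37, standard error 0.29, adjusted p = 9.18e-06 from limma). MiR-130b-3p had 7.97, 8.88 and 8.80 against 6.49, 6.41 and 6.66 (2.03, standard error 0.21) and was at -0.07 with the spike-in spots. These were the 2 tested members of the family of miR-130 and miR-301, and the family took 1.43% to 1.91% of the signal in SH-EVs and 0.114% to 0.216% in MH-EVs. MiR-103-3p, with hairpins in Pank2 and Pank3, and miR-107-3p, in Pank1, all genes of pantothenate kinases, were higher by 2.03 and 2.13. MiR-103-3p had 10.46, 11.44 and 12.07 against 8.94, 8.88 and 10.06, so that the third MH-EV array came near the first SH-EV array without overlap. Both turned with the authors' intensities (-0.12 and -0.05) and the spike-in spots (-1.26 and -1.19).

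MiR-34a-5p, a target of p53, had levels of 8.37, 8.37 and 8.56 in SH-EVs and of 6.37, 6.47 and 6.47 in MH-EVs (2.00, standard error 0.15, adjusted p = 3.11e-06 from limma), was at 4.04 with plain background subtraction and was at -0.08 with the spike-in spots. MiR-139-3p, within the gene Pde2a, had 10.28, 10.60 and 10.60 against 7.54, 7.59 and 7.35 (3.00, standard error 0.21). The SH-EV arrays agreed closely in both and did not overlap the MH-EV arrays. MiR-191a-5p was higher at 2.32, miR-185-5p at 2.15 and miR-181a-5p at 1.79, and with the spike-in spots they lay at -0.99, 0.00 and -0.34. MiR-181b-5p, with the seed of miR-181a-5p, was higher at 0.85, with -0.99 by the spike-in spots and 3.91 with plain subtraction.

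Of 15 tested miRNAs of the miR-17/92 clusters and their paralogues, which promote proliferation, 4 were higher and 1 lower (median 0.05), against 15% higher and 17.6% lower over all tested. The higher ones included miR-25-3p (10.20, 9.69 and 9.88 against 8.12, 8.21 and 8.53, log2 fold change 1.64) and miR-106b-5p (0.88), both of the cluster in the gene Mcm7 at chr12:22156641-22157123 (minus strand). They turned to -0.08 and -0.23 with the authors' intensities and to -1.26 and -1.44 with the spike-in spots. At the miR-17/92 locus on chr15, 1 of 7 tested members was higher and none lower. MiR-21-5p, a growth-related miRNA, had overlapping arrays (9.78, 9.21 and 9.48 against 9.59, 10.34 and 8.48, log2 fold change 0.02), at -1.85 with the authors' intensities and -2.90 with the spike-in spots. None of the 4 tested miRNAs of the list of miR-21, miR-221 and miR-222 was called, where 32.6% of all tested were called.

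A list of epithelial miRNAs held the miR-200 family, miR-203, miR-205 and miR-375. Of its 10 tested members, 3 were higher and 1 lower (median 0.15), 40% called against 32.6% of all tested. Within the miR-200 family itself, miR-200a-3p alone was called. MiR-375-5p was higher at 2.25 (11.74, 10.16 and 10.28 against 8.61, 8.61 and 8.23), miR-205 at 0.82 and miR-200a-3p at 0.57, detected on 2 of 3 MH-EV arrays. With the spike-in spots they lay at -0.65, -1.09 and -1.42, and with plain subtraction the last 2 lay at 3.48 and 3.13. The other arm of the miR-375 hairpin, miR-375-3p, was not called (-0.27) and was dim in both groups (means of 6.04 in SH-EVs and 6.30 in MH-EVs). MiR-203a-3p, a keratinocyte miRNA detected on 1 of 3 SH-EV arrays, was lower at -1.04, a call lost with plain subtraction (-3.72), with median scaling (-0.66) and 75th-percentile scaling (-0.24). Of 4 tested miRNAs in Hox clusters, miR-10a-5p was lower at -1.02, detected on 2 of 3 SH-EV arrays and without a call with median (-0.78) or 75th-percentile (-0.36) scaling, and none was higher. Over all tested, 17.6% were lower.

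**Figure D5:**
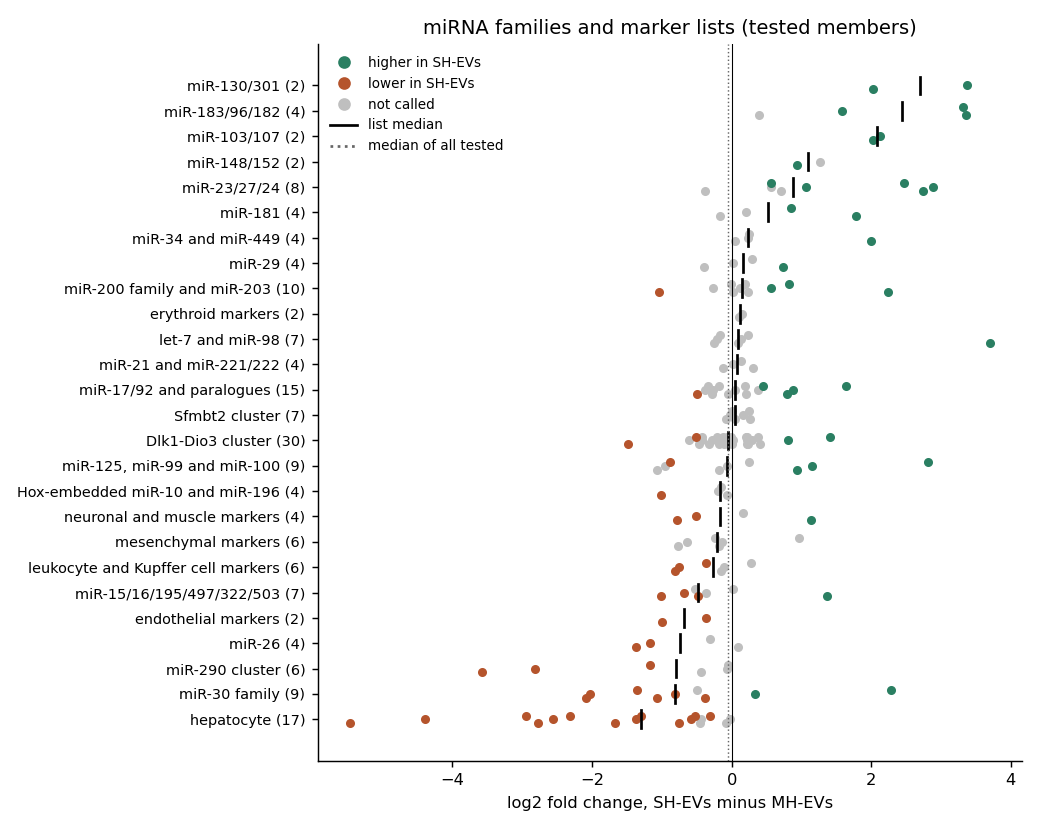
Log2 fold change (SH-EVs minus MH-EVs) of the tested members of each family and marker list, 1 point per miRNA, with the number tested in brackets, black bars at list medians and a dotted line at the median of all tested (-0.06). The hepatocyte list lies lowest (-1.29) and the family of miR-130 and miR-301 highest (2.70), the latter only 0.11 with the spike-in spots.

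Markers of other cell types that liver preparations can hold were also read. Of 6 tested mesenchymal miRNAs none was called in either direction by limma (median -0.21), where 32.6% of all tested were called. MiR-199a-5p had levels of 6.59, 6.58 and 6.69 against 6.87, 6.83 and 6.70 (-0.18, adjusted p = 0.589), miR-145-5p lay at -0.77 (adjusted p = 0.269) and miR-143-3p at -0.64 (adjusted p = 0.129). The mesenchymal probes summed to 0.377% to 0.489% of the signal in SH-EVs and 0.371% to 0.576% in MH-EVs. Both endothelial miRNAs tested, the arms of miR-126a, were lower (17.6% of all tested were lower), and no SH-EV array detected either. Neither was called with median or 75th-percentile scaling, where miR-126a-5p turned from -0.36 to 0.25 and 0.67. The call of miR-126a-5p was also lost when any 1 array other than MH-EV replicate 3 was left out (-0.27 to -0.38). Of 6 tested leukocyte and Kupffer cell miRNAs 3 were lower and none higher (median -0.26, with 17.6% of all tested lower), miR-146a-5p at -0.81 and miR-142-5p at -0.37 (both on no SH-EV array) and miR-223-3p at -0.76. With median and 75th-percentile scaling none of the 6 was called lower (list medians 0.34 and 0.76). These 3 lay at -0.37, 0.33 and -0.41 with median scaling and at 0.05, 0.75 and 0.01 with 75th-percentile scaling. Calls were lost without SH-EV replicates 1 (-0.84), 2 (-0.76) or 3 (-0.82) or MH-EV replicates 1 (-0.67) or 2 (-0.77) for miR-146a-5p. That of miR-146a-5p was lost also without background correction (-0.62). Calls were also lost without SH-EV replicate 3 for miR-142-5p (-0.32), and without SH-EV replicate 3 (-0.68) or MH-EV replicates 1 (-0.65) or 2 (-0.73) for miR-223-3p. The leukocyte probes summed to 0.143% to 0.208% of the signal in SH-EVs and 0.164% to 0.232% in MH-EVs. The 2 erythroid miRNAs tested were not called, and neither group detected them on all its arrays. The part of other cell types in the differences was not tested.

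Sequence features are given as a description. Across the 345 tested miRNAs with a sequence, Spearman's rho of the log2 fold change with the share of G and C was 0.08, as a description, since miRNAs on 1 set of arrays are not independent. The motif GGAG, read on the mature strand alone, was present in 21.6% of the higher miRNAs, 15% of the lower and 13% of all tested. CCCU was present in 7.84% of the higher, 25% of the lower and 14.8% of all tested. Of the 51 tested miRNAs numbered 3000 and above, catalogued later, 8 were higher and 10 lower, 35.3% against 32.1% of those with smaller numbers.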

How the data were processed

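Each array (3D-Gene miRNA Oligo Chip) held Cy3-labelled RNA of 1 EV sample. For every probe, the authors deposited intensities in raw, background-subtracted and normalized form, of which the raw form was used. The scanner is not given in the sources used here. Intensities were corrected against the blank spots (normexp, offset 50), quantile-normalized over 12 arrays and taken to log2 with limma 3.58.1 (R 4.3.3). Flags removed 2 values. The 387 probes detected (raw above the trimmed blank mean plus 2 SD) on all arrays of a group were tested by lmFit and eBayes over 12 arrays, two-sided, with Benjamini-Hochberg adjustment at 0.05. The fit was tested on simulated data. Members and lists were chosen with earlier results of these data known. Named miRNAs were the largest called differences, members of lists, seed families or clusters, opposite arms and bounds. Alternatives were other background corrections, scalings, filters and fits, and each replicate left out. MiRNAs of several hairpins count for each.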

Additional observations from a re-analysis of the deposited data

Results flagged for a closer look

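Signal appeared on 2 spots that no source describes, S-Probe1007 and S-Probe1014. On all 6 arrays they lay above the 95th percentile of the spots without a probe, which was 70.9 to 163 by array. The lowest raw intensity of S-Probe1007 was 390 and that of S-Probe1014 was 314. What these spots measure is not given in the sources used here.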

How the results depend on the processing

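The 58 higher and 68 lower calls were most sensitive to the scaling of the arrays. Lower calls were 40 with the median of the common probes, and higher and lower calls were 123 and 19 with their 75th percentile, 0 and 360 with the spike-in spots and 14 and 218 with the authors' normalized intensities, so that the share of calls that were higher, 46%, ranged from 0% to 86.6%. Array weights gave 88 and 117, the methods' t-test after Benjamini-Hochberg adjustment 40 and 40, and tests of the 244 probes detected on all 6 arrays 45 lower, where fewer probes were tested. Among the named miRNAs, 23 lost their call with that t-test and 10 with plain background subtraction. Leaving out 1 array gave 45 to 63 higher and 47 to 74 lower, and detection on all SH-EV arrays and no MH-EV array gave 2 in place of 0 against the spots without a probe. The causes of these shifts were not tested, and other settings kept both counts within 1.5 times. With the replicate number as a block, 56 were higher and 60 lower. Deviations of same-numbered arrays correlated at 0.44, -0.21 and 0.21, so the numbers were not taken to pair the samples.

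With the spike-in spots the named miRNAs that turned below zero were miR-125a-5p (-1.52), miR-125b-1-3p (-1.79), miR-130b-3p (-0.067), miR-96-5p (-0.43), miR-23a-3p (-0.28), miR-23b-3p (-0.21), miR-24-3p (-0.49), miR-27a-3p (-1.98), miR-103-3p (-1.26), miR-107-3p (-1.19), miR-34a-5p (-0.078), miR-181a-5p (-0.34), miR-181b-5p (-0.99), miR-191a-5p (-0.99), miR-25-3p (-1.26), miR-106b-5p (-1.44), miR-30c-1-3p (-0.36), miR-30c-2-3p (-1.73), miR-375-5p (-0.65), miR-200a-3p (-1.42), miR-205 (-1.09), miR-185-5p (-0.00072), miR-31a-5p (-2.36), miR-21-5p (-2.90), miR-27b-3p (-2.47) and let-7a-5p (-3.08). With the authors' intensities these were miR-125a-5p (-0.25), miR-125b-1-3p (-0.67), miR-27a-3p (-0.88), miR-103-3p (-0.12), miR-107-3p (-0.050), miR-25-3p (-0.078), miR-106b-5p (-0.23), miR-30c-2-3p (-0.27), miR-31a-5p (-1.27), miR-21-5p (-1.85), miR-27b-3p (-1.42) and let-7a-5p (-2.08). With the 75th percentile, miR-192-3p (0.42), miR-194-3p (0.19), miR-802-5p (0.14), miR-146a-5p (0.049), miR-142-5p (0.75), miR-126a-5p (0.67), miR-195-5p (0.48) and miR-223-3p (0.0052) turned above zero, and with the median miR-192-3p (0.0011), miR-126a-5p (0.25), miR-195-5p (0.057) and miR-142-5p (0.33). Dim spots limit the precision, since 46.1% to 76.7% of the spots without a probe lay above the detection limit.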
